A study of Mus musculus with 16 samples.

Results

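Reelin and the genes through which cells receive it were followed in migrating cortical cells of mouse embryos whose dams had been given an insecticide, restraint stress, both or neither. The members are the 4 genes Reln, Lrp8, Vldlr and Dab1, found by their symbols among the 24539 genes of the count table, and all 4 were counted in all 16 libraries and passed the filter on low counts. Beside them stand 78 further genes of the pathway, of which 75 passed the filter.

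The cells came from CD1 embryos of embryonic day 14.5 that carried 1 copy of a GAD67-GFP reporter, which marks cells making the GABA-synthesising enzyme encoded by Gad1. About 1000 GFP-positive cells per embryo were cut by laser from fixed sections of the cortical plate, at the leading edge of migration, and each library is 1 embryo of a separate litter, recorded as male. Dams received alpha-cypermethrin, a pyrethroid insecticide, at 10 mg/kg by gavage on gestational days 11 to 14, or corn oil. Stressed dams were also restrained under bright light on days 12 and 13, in 3 sessions of 45 min per day, and once more on day 14. The last gavage came 90 min before euthanasia, and in stressed dams the last restraint ended 15 min before it. The groups of 4 libraries each are cypermethrin without stress, vehicle with stress, cypermethrin with stress, and vehicle without stress, the last being the control for the other groups.

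Reelin is a large secreted glycoprotein that guides the layering of the cortex. In the embryo it is made mainly by Cajal-Retzius cells of the marginal zone and by some GABAergic cells. It binds the receptors ApoER2, encoded by Lrp8, and VLDLR on migrating neurons, whose clustering leads Src family kinases such as Fyn to phosphorylate the adaptor Dab1. Phosphorylated Dab1 recruits Crk adaptors and PI3 kinase and is then degraded through a Cul5 ubiquitin ligase, and mice that lack reelin, Dab1 or both receptors have a disordered cortex.

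Libraries held 2291283 to 4324129 counts. Gad1 was counted in every library, at 40.4 to 151 CPM (counts scaled to a common library total), Gad2 at 145.5 to 456 CPM and Lhx6, a transcription factor of migrating cortical interneurons, at 172 to 347 CPM. The 10 markers of glutamatergic neurons summed to 4479 to 7486 CPM, against 1673 to 2762 CPM for the 15 interneuron markers, and the 11 markers of radial glia and progenitors to 781 to 1107 CPM. The labels call the cells GABAergic progenitors, and since markers of other cells were this high they are called here only by their GFP selection. Vehicle with stress replicate 1 held 9521 counts of Xist and 1 count of the Y-linked genes looked at, against at most 26 Xist counts and at least 555 Y-linked counts in each of the other 15 libraries. That library goes against its label of a male embryo, and differences of the 4 genes that use its group are also given without it.

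The region before the start site is shown for Reln, the most abundant of the 4 genes, and for Vldlr, the one whose level varied most between libraries. Each line gives the 250 bases upstream of a RefSeq start site in GRCm38.p6, read 5′ to 3′ along the gene's strand. Capitals mark the GC box letters GGGCGG, searched on both strands, which overlap no other motif sought in these windows, and the Vldlr window has none. The Reln window is chr5:22344706-22344955 on the minus strand and the Vldlr window is chr19:27216234-27216483 on the plus strand.
Reln: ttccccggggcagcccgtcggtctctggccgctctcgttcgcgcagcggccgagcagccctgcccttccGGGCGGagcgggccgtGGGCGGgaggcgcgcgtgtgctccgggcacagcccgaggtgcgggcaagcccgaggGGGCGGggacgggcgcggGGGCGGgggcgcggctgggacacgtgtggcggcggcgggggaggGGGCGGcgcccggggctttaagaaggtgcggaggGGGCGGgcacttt
Vldlr: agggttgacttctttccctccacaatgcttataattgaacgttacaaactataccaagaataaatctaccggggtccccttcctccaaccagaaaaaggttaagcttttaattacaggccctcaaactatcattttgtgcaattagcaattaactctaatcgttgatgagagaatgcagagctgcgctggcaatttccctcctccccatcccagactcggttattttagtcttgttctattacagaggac

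The Reln window held 6 GC boxes, 37 CpG dinucleotides and 80% G and C. Of the 32841 mouse windows of this length, 32.7% held at least 1 GC box and 0.883% held at least 6, and the median window had 6 CpG and 52.4% G and C. The Vldlr window held 0 GC boxes, 5 CpG and 41.6% G and C. Neither window held the TATA box letters TATAAA, which 12.4% of all windows did. The letters AGAACA, 1 arm of the element bound by the glucocorticoid receptor, occurred once in the Vldlr window, on the opposite strand (as tgttct), and in 16.1% of all windows, and 0 times in the Reln window. The full palindromic element was in neither window and in 0.00913% of all windows. RefSeq lists a further start site inside Vldlr, whose window held 1 GC box and 18 CpG, and 2 start sites for Dab1, with 10 and 40 CpG before them. These matches describe letters and no binding was measured.

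Among the 4 genes the ligand was the most abundant. Reln lies on chromosome 5 from 21884454 to 22344702 on the minus strand (mm10, GENCODE vM21, protein coding). It averaged 2263 ± 376 CPM over the 16 libraries (SD), with 4740 to 12672 counts per library. By CPM, which is not corrected for length, this placed it at rank 18 of the 13224 genes tested. Dab1, on chromosome 4 from 103619359 to 104744844 on the plus strand, averaged 572 ± 69.5 CPM (rank 210). Lrp8, on chromosome 4 from 107802261 to 107876840 on the plus strand, averaged 347 ± 46.4 CPM (rank 458). Vldlr, on chromosome 19 from 27216484 to 27254231 on the plus strand, averaged 164 ± 39.0 CPM (rank 1328), with 339 to 794 counts per library. No other gene of the table overlaps any of the 4.

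Because long transcripts gather more reads, levels between genes were compared per kilobase of exon. On the scale of CPM per kb, over the union of all annotated exons, Reln was at 95.3 ± 15.9, Dab1 at 72.3 ± 8.78, Lrp8 at 33.03 ± 4.41 and Vldlr at 16.3 ± 3.88 (SD, n = 16 each). This order held in 15 of 16 libraries. In cypermethrin without stress replicate 2 the reelin gene was at 66.9 CPM per kb, below its adaptor Dab1, while the receptors kept their places. Over the longest transcript alone, Reln was at 193, Dab1 at 108, Lrp8 at 52.4 and Vldlr at 20.6 CPM per kb, and the order held in 16 of 16 libraries. Per kb of the union, Reln ranked 265, Dab1 381, Lrp8 1148 and Vldlr 2766 of the 12926 tested genes with a length. Per kb of the longest transcript Reln ranked 142. Among the receptors, Lrp8 was 2.12 ± 0.516 times as abundant per kb as Vldlr, with a range of 1.18 to 3.16, so the ApoER2 gene was above the VLDLR gene in every library. The neighbours Reln and Dab1 lay closest, with a ratio per kb of 1.34 ± 0.310.

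The 4 genes differed in how steady they were. The coefficient of variation over the 16 libraries was 12.2% for Dab1, 13.4% for Lrp8, 16.6% for Reln and 23.8% for Vldlr. Genes of like abundance, within 2-fold of each in mean CPM, had median coefficients of 18.5%, 20.6%, 14.5% and 26.0% beside them. A lower coefficient than that of Dab1 was found in 9.48% of its 591 peers, and a lower one than that of Lrp8 in 8.41% of its 1118 peers.

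**Figure D1:**
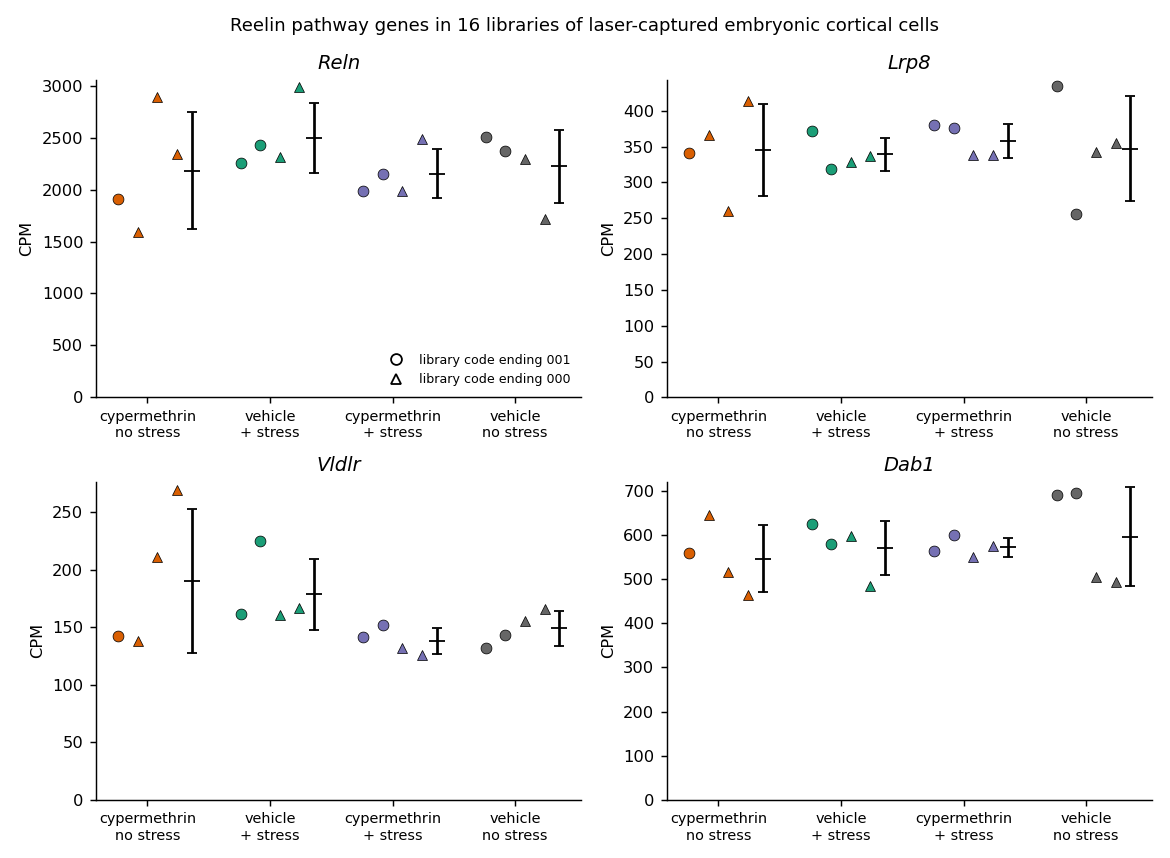
CPM of each of the 4 genes (vertical axes, from 0) in the 16 libraries, by group along the horizontal axes. Points are libraries, circles and triangles mark the code in their descriptions, and bars show the group mean and SD (n = 4). Reln groups overlap throughout, and Vldlr is highest in cypermethrin without stress replicates 3 and 4 and in vehicle with stress replicate 2.

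Reln, the ligand, was at 1909, 1588, 2887 and 2341 CPM with cypermethrin without stress and at 2254, 2425, 2317 and 2987 CPM with stress alone. It was at 1984, 2145, 1987 and 2488 CPM with both exposures and at 2509, 2375, 2299 and 1714 CPM with vehicle without stress. All groups overlapped, and the lowest and the next to highest of the 16 libraries were both cypermethrin without stress. Means were 2181 ± 563 CPM with cypermethrin alone, 2496 ± 335 CPM with stress alone and 2151 ± 237 CPM with both, against 2224 ± 351 CPM in vehicle without stress (SD, n = 4 each). The mean with stress alone was 2576 ± 360 CPM without the library that goes against its label (SD, n = 3).

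The exposures were compared with edgeR's quasi-likelihood test on counts, with p-values adjusted over all 13224 genes by the Benjamini-Hochberg method and genes called at an adjusted p under 0.05. In each of the 8 comparisons 0 of the 4 genes were called, and the share called among all genes was 0%. At an unadjusted p under 0.05 the share of all genes ran from 1.49% for both exposures against vehicle without stress to 5.39% for cypermethrin with stress against vehicle with stress. No adjusted p of the 4 genes was under 0.937. The 95% intervals given for each gene show which sizes of change the 4 libraries per group leave in range.

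For Reln the log2 difference was -0.03 ± 0.16 (SE) for cypermethrin alone against vehicle without stress, with a 95% interval of -0.35 to 0.29. Stress alone gave 0.17 ± 0.16 (-0.15 to 0.49), or 0.21 without the library that goes against its label. Both exposures gave -0.05 ± 0.16 (-0.37 to 0.27). Averaged over stress, cypermethrin gave -0.12 ± 0.11 (-0.35 to 0.11), and averaged over cypermethrin, stress gave 0.07 ± 0.11 (-0.15 to 0.30). Between the stressed groups, cypermethrin gave -0.21 ± 0.16 (-0.53 to 0.11), a comparison added after the data had been seen. Without the library that goes against its label, the averaged effects were -0.14 for cypermethrin and 0.09 for stress, and the difference between the stressed groups was -0.26. Over the fits with 1 library left out, the averaged cypermethrin effect on Reln ran from -0.20 without cypermethrin without stress replicate 3 (unadjusted p = 0.0605, adjusted p = 0.990 in edgeR) to -0.06 without replicate 2 of that group. The averaged stress effect ran from 0.01 without that replicate 2 to 0.15 without that replicate 3. The descriptions of the libraries carry a code of unstated meaning that ends in 000 for 9 of them and in 001 for 7. Within these sets the difference for cypermethrin alone was 0.18 (000) and -0.35 (001). In the code ending 001 cypermethrin without stress has only 1 library.

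Lrp8, the ApoER2 receptor gene, was at 341, 367, 260 and 413 CPM with cypermethrin without stress and at 372, 318, 329 and 337 CPM with stress alone. It was at 380, 376, 338 and 338 CPM with both exposures and at 434, 256, 343 and 355 CPM with vehicle without stress. The control group held both the highest and the lowest of the 16 values. Log2 differences from vehicle without stress were -0.01 ± 0.18 for cypermethrin alone (-0.37 to 0.36), -0.03 ± 0.18 for stress alone (-0.40 to 0.33) and 0.04 ± 0.18 for both (-0.32 to 0.41). Averaged effects were 0.03 ± 0.13 for cypermethrin (-0.22 to 0.29) and 0.01 ± 0.13 for stress (-0.25 to 0.27). With the library that goes against its label left out, the difference for stress alone was -0.08 and the averaged effects were 0.06 for cypermethrin and -0.02 for stress.

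Dab1, the intracellular adaptor, was at 559, 645, 517 and 465 CPM with cypermethrin without stress and at 624, 579, 597 and 484 CPM with stress alone. It was at 563, 600, 550 and 576 CPM with both exposures and at 691, 695, 505 and 495 CPM with vehicle without stress. The groups overlapped, and both high control libraries carried the library code ending 001. By that code Dab1 averaged 616 ± 57.0 CPM in 7 libraries and 537 ± 59.5 CPM in the other 9 (SD). The part of that code in the differences was not tested beyond fits with it as a term and within it. Log2 differences were -0.13 ± 0.16 for cypermethrin alone (-0.45 to 0.20), -0.06 ± 0.16 for stress alone (-0.39 to 0.26) and -0.06 ± 0.16 for both (-0.38 to 0.26), against vehicle without stress. Averaged effects were -0.06 ± 0.11 for cypermethrin (-0.29 to 0.17) and 0.00 ± 0.11 for stress (-0.23 to 0.23). When the library that goes against its label was left out, the difference for stress alone was -0.11 and the averaged effects were -0.04 for cypermethrin and -0.02 for stress. Among libraries of the code ending 000 the difference for cypermethrin alone was 0.12, of the opposite sign.

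Vldlr, the other reelin receptor gene, had the widest differences of the 4. It was at 142, 138, 211 and 269 CPM with cypermethrin without stress, where replicates 3 and 4 stood high. It was at 161, 225, 160 and 167 CPM with stress alone, where replicate 2 stood high. With both exposures it was at 142, 152, 132 and 126 CPM, and with vehicle without stress at 132, 143, 156 and 166 CPM. Means were 190 ± 62.4 CPM with cypermethrin alone, 178 ± 31.3 CPM with stress alone and 138 ± 11.4 CPM with both, against 149 ± 15.1 CPM in vehicle without stress (SD, n = 4 each). The mean with stress alone was 184 ± 35.7 CPM without the library that goes against its label (SD, n = 3). Each single exposure had a higher mean than the control, and the double exposure had the lowest mean.

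Against vehicle without stress, the Vldlr log2 difference was 0.35 ± 0.23 for cypermethrin alone (95% interval -0.12 to 0.81), 0.26 ± 0.23 for stress alone (-0.20 to 0.72) and -0.11 ± 0.23 for both (-0.58 to 0.35). The interaction, which asks whether both exposures together differ from the sum of the single ones on the log2 scale, was -0.72 ± 0.32 (-1.37 to -0.07, unadjusted p = 0.0323). It placed Vldlr at rank 371 of 13224 genes, where 4.7% of all genes had an unadjusted p under 0.05, and its p adjusted over all genes was 0.985 in edgeR. The other members had interaction differences of -0.19 ± 0.22 for Reln, 0.09 ± 0.25 for Lrp8 and 0.13 ± 0.22 for Dab1, or -0.24, 0.13 and 0.17 without the library that goes against its label.

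Several libraries weigh on this Vldlr pattern. Without cypermethrin without stress replicate 4 the interaction was -0.52 (unadjusted p = 0.0999 in edgeR) and the difference for cypermethrin alone was 0.14. Without vehicle with stress replicate 2 the interaction was -0.59 (unadjusted p = 0.0882 in edgeR) and the difference for stress alone was 0.13. Without the library that goes against its label the interaction was -0.77 and the difference for stress alone was 0.31. Over all 16 such fits it ran from -0.85 to -0.52. Within the library codes it was -0.70 (000) and -0.45 (001), where cypermethrin without stress has 1 library in the code ending 001. Cypermethrin without stress replicates 3 and 4, the libraries highest in Vldlr within that group, also had summed Cajal-Retzius markers of 961 and 825 CPM, against 319 to 449 CPM in replicates 1 and 2 of that group, and summed meningeal and pericyte markers of 4036 and 3105 CPM, against 1749 to 2042 CPM. Interneuron markers were also higher in these replicates 3 and 4 than in 1 and 2. Gad1 was at 77.6 and 151 against 53.7 and 73.1 CPM, and Gad2 at 407 and 456 against 272 and 207 CPM. Lhx6 was at 292 and 314 against 172 and 219 CPM, but Sst was mixed, at 124 and 327 against 211 and 190 CPM. In vehicle without stress summed meningeal and pericyte markers lay at 1398 to 3630 CPM, with Vldlr at 132 to 166 CPM. With stress alone these meningeal and pericyte sums lay at 1378 to 2329 CPM, with Vldlr at 160 to 225 CPM. With both exposures they lay at 2050 to 2839 CPM, with Vldlr at 126 to 152 CPM. The part of Cajal-Retzius cells, interneurons, meningeal cells and pericytes in the Vldlr values was not tested. In these bulk samples fewer cells of a type and less RNA per cell cannot be told apart.

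Of all pairs of a member and a comparison of single groups, Vldlr in the stressed groups was the only one whose ranges did not overlap. The share of all genes whose ranges did not overlap was 1.32% lower and 1.19% higher for cypermethrin alone and 1.66% lower and 1.23% higher for stress alone, each against vehicle without stress. It was 1.35% lower and 1.27% higher for both exposures against vehicle without stress, and 1.21% lower and 1.37% higher for both against cypermethrin alone. The 4 Vldlr values with both exposures (126 to 152 CPM) lay below the 4 with stress alone (160 to 225 CPM), where 1.21% of all genes were lower and 1.83% higher without overlap. The log2 difference was -0.37 ± 0.23 (-0.84 to 0.09, unadjusted p = 0.110, adjusted p = 0.937 in edgeR), and -0.42 without the library that goes against its label. It was -0.24 without vehicle with stress replicate 2. Against cypermethrin without stress, both exposures gave -0.46 ± 0.23 (-0.92 to 0.00, unadjusted p = 0.0510, adjusted p = 0.997 in edgeR), which was -0.25 without replicate 4 of that group and, within the codes, -0.68 (000) and 0.04 (001). Both comparisons were added after the data had been seen.

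**Figure D2:**
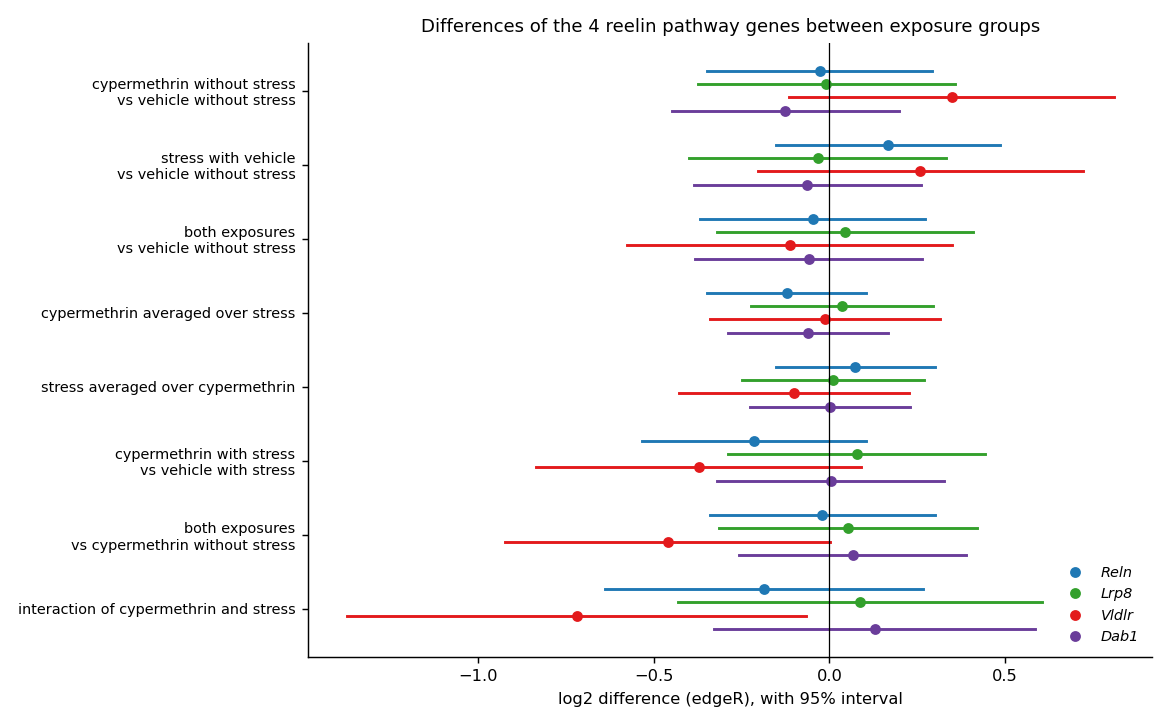
Log2 difference (edgeR, horizontal axis) with its 95% interval for the 4 genes in 8 comparisons (rows). All intervals span 0 except that of Vldlr in the interaction, from -1.37 to -0.07, whose adjusted p was 0.985.

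Since both receptors bind the same ligand, their ratio within a library was also compared, which does not depend on how libraries are scaled. The log2 ratio of Vldlr to Lrp8 per kb averaged -0.84 ± 0.53 with cypermethrin without stress, -0.88 ± 0.30 with stress alone and -1.31 ± 0.05 with both exposures, against -1.14 ± 0.37 in vehicle without stress (SD, n = 4 each). Stress alone averaged -0.79 ± 0.30 without the library that goes against its label (SD, n = 3). The values with both exposures were the most alike, at -1.36 to -1.25. In exact two-sided permutation tests the difference from vehicle without stress was 0.30 for cypermethrin alone (p = 0.4), 0.26 for stress alone (p = 0.4) and -0.18 for both (p = 0.457), where the smallest p this design allows is 0.0286. The averaged effects were -0.07 for cypermethrin (exact p = 0.733) and -0.11 for stress (exact p = 0.593), and the p adjusted over the 5 comparisons was 0.733 for each. With all 16 libraries none of these 5 differences in receptor balance exceeded the spread between embryos. The ratio was not tested between the stressed groups or for the interaction. With both exposures it lay at -1.36 to -1.25 and with stress alone at -1.14 to -0.44, without overlap. For how many other pairs of genes this holds was not counted. With cypermethrin without stress it lay at -1.35 to -0.24 and in vehicle without stress at -1.66 to -0.78. Single libraries moved the tested differences. For both exposures the difference ran from -0.35 without vehicle without stress replicate 1 (exact p = 0.0286, the smallest that 4 against 3 libraries allow, adjusted 0.143) to -0.06 without replicate 2 of that group (exact p = 0.857). For cypermethrin alone it ran from 0.10 without cypermethrin without stress replicate 3 to 0.47 without replicate 2 of that group. For stress alone it ran from 0.09 without vehicle without stress replicate 1 to 0.38 without replicate 2 of that group. Without the library that goes against its label it was 0.35 for stress alone (exact p = 0.314), and the averaged effects were -0.11 for cypermethrin and -0.06 for stress.

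Across the 16 libraries the members were also set against each other, over 6 pairs. Dab1 and Vldlr had the largest correlation of log2 CPM, at Pearson r = -0.55 (permutation p = 0.0274, adjusted 0.164) and Spearman rho = -0.49 (permutation p = 0.0575, adjusted 0.345). Without the 2 libraries farthest from the median of Dab1, r was -0.36. Reln gave r = 0.33 with Vldlr, -0.32 with Lrp8 and -0.15 with Dab1, and 0 of the 6 pairs passed the correction. Within the library codes Reln and Dab1 gave r = 0.75 (001) and -0.43 (000), so the pooled value joins opposite signs.

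Reln is made by Cajal-Retzius cells and by some interneurons, so its level was set beside 12 markers of Cajal-Retzius cells and 15 of interneurons over the 16 libraries. By Spearman's rho, 2 of the 27 relations passed the correction, and both were Cajal-Retzius markers. Nhlh2, a transcription factor, gave rho = 0.74 (permutation p = 0.00149, adjusted 0.0350) and Pearson r = 0.63 (permutation p = 0.00954, adjusted 0.128). Trp73, which encodes the p73 protein that is a defining marker of these cells, gave rho = 0.71 (permutation p = 0.00259, adjusted 0.0350) and r = 0.56 (permutation p = 0.0236, adjusted 0.128). By Pearson's r 0 of 27 passed, and 6 relations had an unadjusted p under 0.05.

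The Reln relations to Nhlh2 and Trp73 kept their sign within each code and when values centred on group means were pooled. No correlation was computed within a single group. Without the 2 libraries farthest from the marker's median, r was 0.67 for Nhlh2 and 0.59 for Trp73, and after centring on group means it was 0.67 and 0.65. Within the code ending 001 (7 libraries) r was 0.48 for Nhlh2 and 0.56 for Trp73, and within the code ending 000 (9 libraries) both were 0.72. With each library left out in turn, rho ran from 0.70 to 0.81 for Nhlh2 and from 0.68 to 0.76 for Trp73, and each passed in 10 of 16 such sets. Both missed the threshold without replicate 1, 2 or 3 of cypermethrin without stress, replicate 3 of cypermethrin with stress, or replicate 1 or 3 of vehicle without stress, with adjusted permutation p up to 0.0850. Of the other 13223 genes tested, 4 had a rho with Reln at least as high as that of Nhlh2, that gene included, and 8 one at least as high as that of Trp73.

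Other Cajal-Retzius markers did not move with Reln in the same degree. Ndnf, a secreted factor of these cells, gave r = 0.58 (rho = 0.63) and Cacna2d2, a calcium channel subunit, r = 0.66 (rho = 0.65), both short of the correction. Without the library that goes against its label Cacna2d2 gave r = 0.80 and passed (adjusted permutation p = 0.00945), and over the 16 sets with 1 library left out its r was at least 0.52. Cacna2d2 gave r = 0.14 within the code ending 001 and 0.92 within 000. Calb2, the gene of calretinin, gave r = 0.20 and Lhx5 r = 0.09, each at under 10 CPM on average. Over the whole list r was positive for 10 of 12 markers, with a median of 0.12, against a median of -0.02 over all other genes. Over the 15 interneuron markers it was positive for 11, with a median of 0.16. Maf gave r = 0.52 (rho = 0.64, adjusted permutation p = 0.0591), a rho like those of Ndnf and Cacna2d2. Lhx6 gave r = 0.47 (rho = 0.49), while Gad2 gave r = 0.36, Gad1 -0.02 and the somatostatin gene Sst -0.15. Sox6 had the lowest r of this list, -0.44 (rho = -0.36). It was -0.62 after centring on group means and ran from -0.55 to -0.26 with each library left out. None of the interneuron markers passed the correction, and r with Gad1 changed sign between ways of scaling the libraries.

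**Figure D3:**
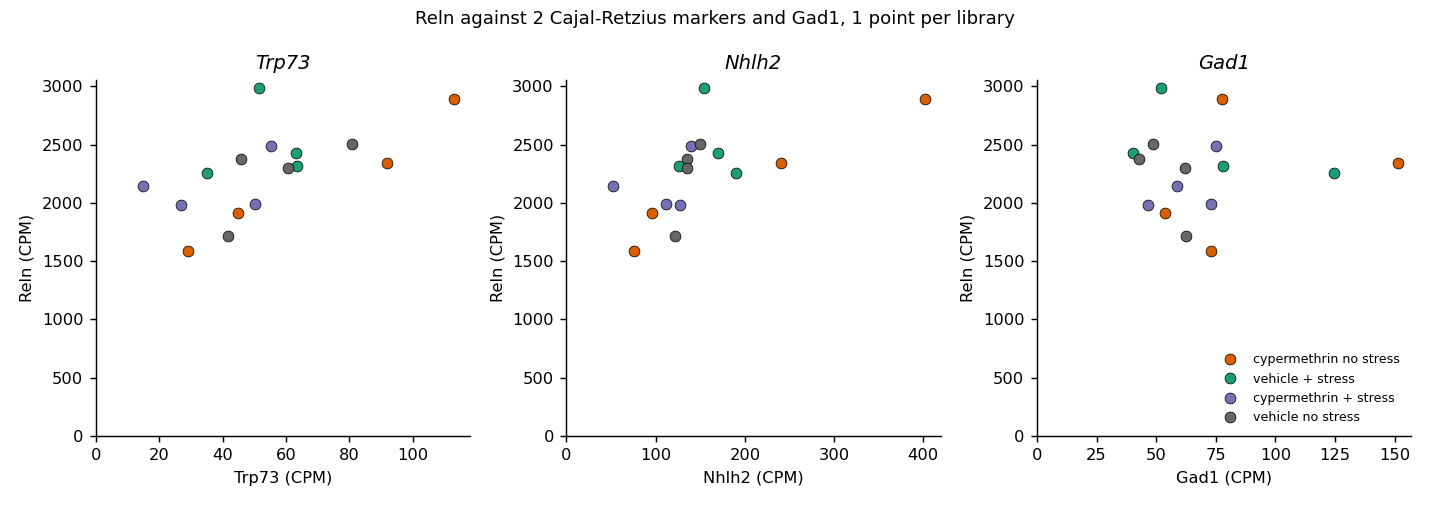
Reln (CPM, vertical axes) against the Cajal-Retzius markers Trp73 and Nhlh2 and against Gad1 (CPM, horizontal axes), 1 point per library, coloured by group. Reln and the first 2 markers rank alike over the 16 libraries (rho 0.71 and 0.74), while points against Gad1 show no such order (rho -0.09). The interneuron marker Maf, which is not drawn, gave rho 0.64.

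The summed Cajal-Retzius markers lay at 319 to 961 CPM with cypermethrin without stress, 580 to 840 CPM with stress alone and 410 to 639 CPM with both exposures, against 518 to 643 CPM in vehicle without stress. All 12 had counts in every group. Their part in the level of Reln was not tested.

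The genes of the tested table whose log2 CPM ranked most like each member over the 16 libraries were sought among 7598 genes with a mean of at least 20 CPM. For Reln they were Ip6k2 (rho = 0.81), Flrt3 (0.79) and Nhlh2 (0.74), for Lrp8 Magel2 (0.88), Csnk1e (0.83) and Med31 (0.81). For Vldlr they were Btbd9 (0.80), Nr4a3 (0.80) and Hsd17b10 (0.78), and for Dab1 Prelid1 (0.87), Tdrkh (0.82) and Ldb1 (0.80). These are the highest of many values and carry no test.

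The wider pathway spanned a broader range of levels than the 4 core genes. Among genes for reelin cleavage and its inhibition, Adamts3, the protease that inactivates reelin in the embryonic cortex, led its list at 54.6 CPM per kb and 296 ± 79.9 CPM. Adamts2, a related protease, was at 6.38 CPM, and the meprin genes Mep1a and Mep1b had 1 and 2 counts in all 16 libraries together and were not tested. The serpin Serpini1 was at 168 CPM and the plasminogen activator Plat at 31.9 CPM.

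Among other ligands and receptor partners Selenop, which encodes a selenium carrier that binds ApoER2, led at 72.4 CPM per kb, though its exons overlap those of Ccdc152. Thbs1, a thrombospondin known to bind both receptors, was at 98.7 CPM, Apoe at 25.3 CPM and the ephrin Efnb2 at 255 CPM. Integrin alpha 3, a reelin-binding partner, was low (Itga3, 8.10 CPM) beside the beta 1 subunit (Itgb1, 107 CPM). Of the relatives of the receptors Lrp1 led at 21.7 CPM per kb, above Vldlr and below Lrp8 on that scale. Lrp2 had 31 counts in all and was not tested.

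Downstream of Dab1, the kinase Fyn was at 134 CPM and its relatives Yes1 and Src at 58.6 and 34.7 CPM. The adaptors Crk and Crkl were at 149 and 129 CPM and their partner Rapgef1, an activator of Rap1, at 162 CPM. Gsk3b, a kinase restrained by PI3 kinase signalling, was at 829 CPM. Of the genes for Dab1 degradation Elob led at 129 CPM per kb, with exons that overlap Srrm2, while the ligase scaffold Cul5 was at 139 CPM, its ring protein Rnf7 at 57.7 CPM and the substrate receptor Socs7 at 119 CPM. The migration effector Dcx, the microtubule protein doublecortin, had the highest level of all pathway genes, 310 CPM per kb.

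**Figure D4:**
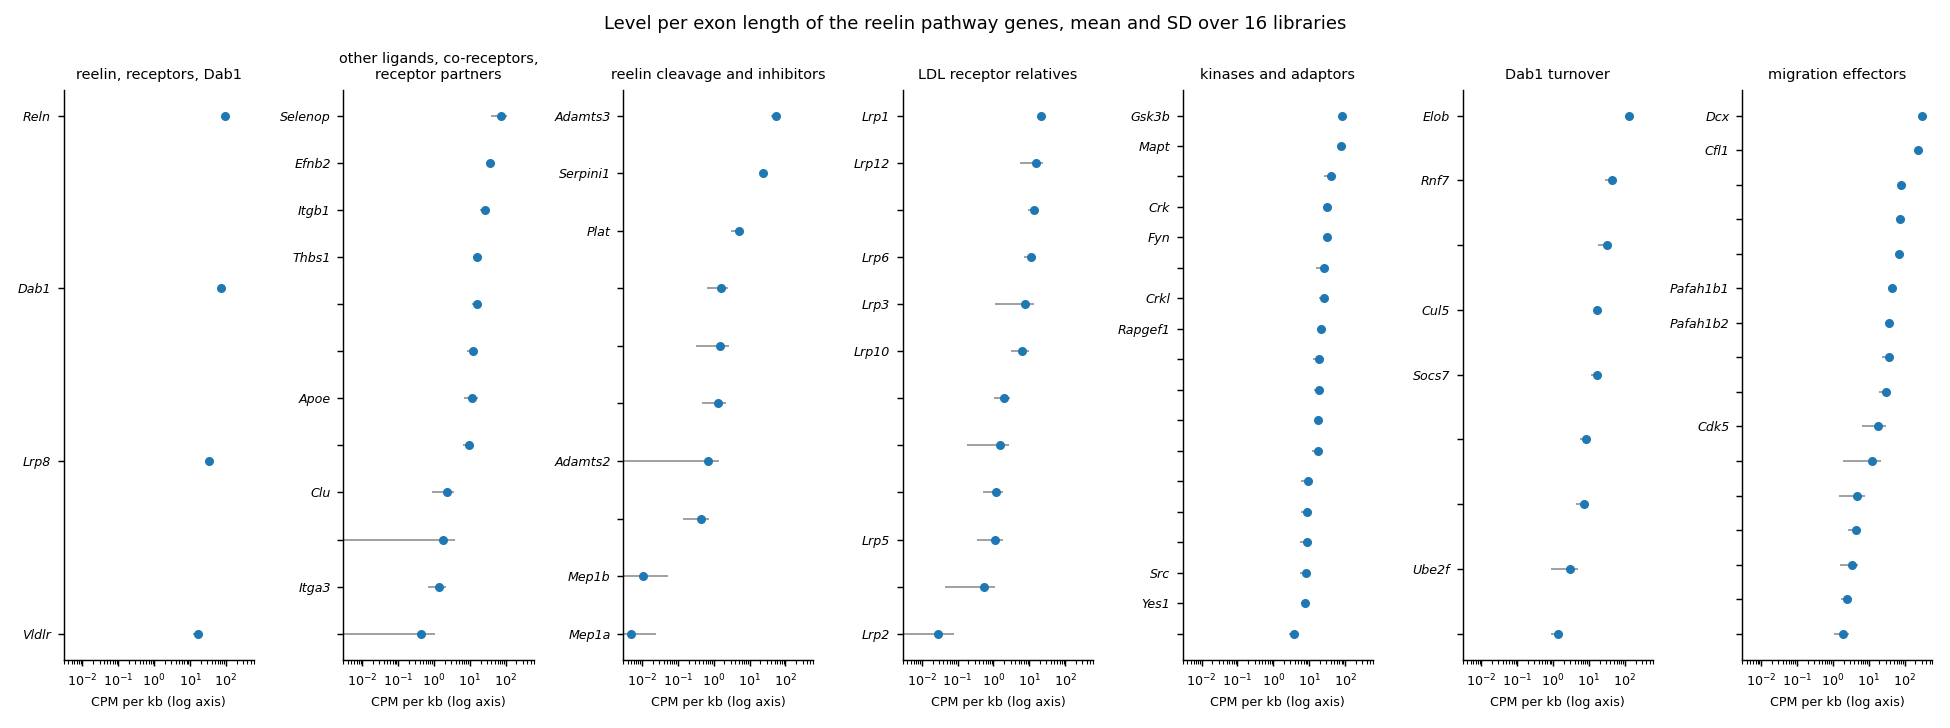
CPM per kb of exon (horizontal axes, log scale) for the 4 core genes and all but 1 of the 78 further pathway genes, in 7 panels by role, with names for those given in the text or here. Points are means and lines SDs over 16 libraries, and a line that reaches the left edge extends to 0 or below. Reln and Dab1 lie near Selenop and Adamts3, and Dcx, Cfl1 and Elob lie above them.

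Of the 75 tested pathway genes 0 were called in each of the 8 comparisons, as was the case for 0% of all genes. At an unadjusted p under 0.05 there was 1 for cypermethrin alone (1.33% of 75, beside 3.71% of all genes), 4 for stress alone (5.33% beside 5.08%), 0 for both (beside 1.49%) and 0 for the interaction (beside 4.7%). There were 4 for cypermethrin averaged over stress (beside 4.59%), 4 for stress averaged over cypermethrin (beside 5.13%), 1 between the stressed groups (beside 5.39%) and 2 for both exposures against cypermethrin without stress (beside 4.31%). These shares were near or below the background. The median log2 difference from vehicle without stress was 0.04 for the pathway genes and 0.03 for all genes with cypermethrin alone, 0.07 and 0.01 with stress alone, and 0.09 and 0.00 with both.

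Lrp3, a less studied relative of the receptors, stood apart in the stress group. It was at 123, 39.1, 85.8 and 46.4 CPM with stress alone, at 26.2, 18.5, 2.66 and 30.4 CPM with cypermethrin alone and at 17.6, 16.8, 28.9 and 25.4 CPM with both, against 19.9, 21.1, 34.3 and 20.8 CPM in vehicle without stress. All 4 libraries of stress alone lay above the other 12, as for 0.0681% of all genes (9 of 13224), and Lrp3 was singled out after its values were seen. It also lay above vehicle without stress without overlap, as for 1.23% of all genes, and with both exposures it lay below stress alone, as for 1.21%. The log2 difference was 1.61 ± 0.52 for stress alone against vehicle without stress (unadjusted p = 0.00472, adjusted p = 0.965 in edgeR) and -1.72 ± 0.52 for cypermethrin with stress against vehicle with stress (unadjusted p = 0.00279, adjusted p = 0.902 in edgeR). Without the library that goes against its label, which held the highest Lrp3 value, these were 1.25 and -1.36. Lrp3 also had the smallest p of the pathway genes for cypermethrin averaged over stress (-1.02, unadjusted p = 0.00982 in edgeR). For stress averaged over cypermethrin it gave 0.90 (unadjusted p = 0.0201 in edgeR), and neither passed the correction. Exons of Lrp3 overlap those of Slc7a10, so its counts are uncertain where strand was not used.

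Other pathway genes with the smallest p in a comparison also failed the correction. Gsk3b differed by 0.35 ± 0.14 for stress alone (unadjusted p = 0.0190 in edgeR), with 1101, 883, 996 and 860 CPM against 828, 764, 699 and 722 CPM in vehicle without stress. Its groups did not overlap, as for 1.23% of all genes in that direction, and without the library that goes against its label the difference was 0.28. Pafah1b1, the Lis1 dynein regulator, gave 0.49 ± 0.21, or 0.27 without that library, and Clu, the clusterin gene, gave -2.03 ± 0.89, or -1.64. Clu rests on few counts, 0, 18, 7 and 15 with stress alone against 29, 51, 70 and 30 in vehicle without stress. Mapt, the tau gene, gave -0.34 ± 0.16 for cypermethrin alone, where Lrp10 gave -1.06 ± 0.52, and without vehicle without stress replicate 1 these were -0.20 and -0.69. Lrp6, a Wnt co-receptor, gave -0.49 ± 0.18 for cypermethrin averaged over stress, but that group of 8 vehicle libraries includes a value of 345 CPM in the library that goes against its label, and without it the difference was -0.29. Between the stressed groups Lrp6 gave -0.52, or -0.12 without that library. Ube2f, a NEDD8-conjugating enzyme that acts on Cul5, gave -0.96 ± 0.38 for stress averaged over cypermethrin, or -0.64 without vehicle without stress replicate 1. For both exposures against cypermethrin without stress Pafah1b2 gave 0.43 ± 0.20 and Cdk5, a kinase of migrating neurons, 1.04 ± 0.47. Cdk5 was at 125, 46.6, 30.9 and 29.2 CPM with both, against 39.3, 32.4, 26.6 and 14.0 CPM with cypermethrin without stress, and without replicate 1 of cypermethrin with stress the difference was 0.34 (unadjusted p = 0.465 in edgeR). For both exposures against vehicle without stress the smallest p belonged to Lrp5 (-1.52 ± 0.85) and Ube2f (-0.90 ± 0.54), where without vehicle without stress replicate 1, at 71.0 CPM of Ube2f, the Ube2f difference was -0.25 and that of Lrp5 -1.04. For the interaction the smallest p belonged to Lrp12 (-1.28 ± 0.63) and Lrp3 (-1.41 ± 0.73), or -0.47 and -1.05 without the library that goes against its label.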

How the data were processed

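RNA from laser-captured GFP-positive cells of 16 embryos was sequenced from total RNA. The authors deposited whole-number read counts per gene symbol. The aligner STAR 2.5 and the build mm10 are named per the submitters' processing notes, and the counting tool, gene models and strand setting are not given in the sources used. Positions and exon lengths come from GENCODE vM21, where 23835 of 24539 symbols have 1 entry, and promoter windows from RefSeq.

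Samples were grouped by their exposure labels. Replicate numbers were given in accession order. The test was the quasi-likelihood F test of edgeR 4.0.16 (R 4.3.3), using filterByExpr with a count minimum of 10, TMM scaling, robust dispersion and 1 mean per group over all 16 libraries. A standard error is the difference divided by the root of F, and CPM use TMM-scaled library sizes. Of 8 comparisons 6 were planned and 2 added after seeing the data. Correlations use log2 CPM (prior count 2) and 100000 permutations, the receptor ratio counts plus 0.5. Fits were tested on simulated data. Alternatives were RLE scaling, no filter, DESeq2 1.42.0, the library code as a term and within it, only the groups compared, other lengths and each library left out, the last added for the named pathway genes after seeing the data.

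Members, lists and the rule for named genes were chosen with earlier results of these data known. That rule takes the 4 members, the 2 pathway genes with the smallest p per comparison, the gene with the highest CPM per kb of each list and the 3 genes most like each member. The leading gene of 1 list and single values of some markers are not reported here. Other genes named, with their levels, were chosen after values were seen. Litters were separate, and each p covers the spread between these embryos.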

Additional observations from a re-analysis of the deposited data

Results flagged for a closer look

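Vldlr in vehicle with stress replicate 2 stood far from the other libraries of its group, at 225 CPM against 160 to 167 CPM in the other 3. The gap to its nearest neighbour was 0.894 of the range of the group. Such gaps were looked for in 16 sets of a member and a group and in the receptor ratio of each group, and chance gives about 1 in 20 sets, so 1 is no more than chance gives. The library carries the code ending 001, and its summed microglia and macrophage markers, 187 CPM, were the next to highest of the 16. Their part in the value was not tested.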

How the results depend on the processing

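No paired analysis was possible because the labels give no replicate numbers that the groups share. The 4 members were called in 0 comparisons under every alternative run, and the cause of each change of sign was not tested. Over all reported results and settings, fits within a library code and left-out libraries aside, 11 signs changed.

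Under RLE scaling Dab1 gave -0.013 between the stressed groups, under DESeq2 -0.012 and with only those groups fitted -0.000164. The averaged stress effect on Dab1 was -0.00127 without a filter and -0.016 with the code as a term, where Lrp8 gave 0.00349 for cypermethrin alone. Within the code ending 000 (9 libraries), Reln gave 0.18 for cypermethrin alone and 0.16 for both exposures. Dab1 there gave 0.12 for cypermethrin alone, 0.11 for stress alone, 0.17 for both, -0.063 for the interaction and 0.088 for cypermethrin averaged over stress. Lrp8 there gave -0.049 for both, -0.053 for averaged stress and -0.040 for both against cypermethrin alone, and Vldlr 0.00469 for averaged cypermethrin. In the code ending 001 (7 libraries), Reln gave -0.063 for stress alone, 0.17 for the interaction and 0.11 for both against cypermethrin alone. Vldlr there gave 0.095 for both, 0.27 for averaged stress and 0.040 for both against cypermethrin alone (-0.46 over all libraries), and Dab1 -0.077 for averaged stress and -0.050 between the stressed groups.

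Genes called among all genes were 0 in edgeR. DESeq2 called 1 for averaged cypermethrin and 2 between the stressed groups. In the code ending 001 the counts were 2 for cypermethrin alone, 45 for stress alone, 13 for both, 9 for the interaction, 14 for averaged cypermethrin, 7 for averaged stress, 57 between the stressed groups and 3 for both against cypermethrin alone, from fits where cypermethrin without stress has 1 library, assumed to vary like the others, and each other group has 2. Leaving out vehicle with stress replicate 3 gave 1 call for averaged cypermethrin and 1 between the stressed groups, against 0 for the other libraries left out.

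Levels per kb over the longest transcript were 193 for Reln, 108 for Dab1, 20.6 for Vldlr and 52.4 for Lrp8, since that length is shorter than the union of exons.

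Pearson correlations of Reln changed sign for Gad1 (0.00811) under RLE scaling, and for Ebf3 (-0.11), Car10 (-0.00155), Sst (0.023) and Slc32a1 (-0.13) after centring on groups. In the code ending 001 they did for Lhx5 (-0.096) and Gad2 (-0.45). In the code ending 000 they did for Ebf2 (0.23), Car10 (-0.17) and Slc32a1 (-0.10), and 1 relation passed there, Cacna2d2 at 0.92. Without vehicle with stress replicate 1, too, 1 passed (Cacna2d2, 0.80), against 0 in the other sets with a library left out, where it was at least 0.52.

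With each library left out in turn, signs changed within these ranges of log2 difference. For Reln they were -0.19 to 0.097 for cypermethrin alone, -0.16 to 0.016 for both and -0.14 to 0.14 for both against cypermethrin alone. For Dab1 they were -0.14 to 0.020 for stress alone, -0.14 to 0.023 for both, -0.038 to 0.047 for averaged stress, -0.074 to 0.047 between the stressed groups and -0.00827 to 0.16 for both against cypermethrin alone. For Lrp8 they were -0.13 to 0.12 for cypermethrin alone, -0.15 to 0.097 for stress alone, -0.077 to 0.17 for both, -0.049 to 0.21 for the interaction, -0.026 to 0.098 for averaged cypermethrin, -0.051 to 0.073 for averaged stress and -0.067 to 0.14 for both against cypermethrin alone. For Vldlr they were -0.12 to 0.052 for averaged cypermethrin and -0.17 to 0.00540 for averaged stress. For the log2 ratio of Vldlr to Lrp8 the range was -0.17 to 0.017 for averaged cypermethrin. Correlations with Reln ranged from -0.21 to 0.057 for Barhl2, -0.044 to 0.18 for Car10, -0.074 to 0.26 for Dlx1, -0.057 to 0.53 for Dlx2, -0.44 to 0.25 for Dlx6, -0.17 to 0.019 for Ebf2, -0.12 to 0.34 for Ebf3, -0.087 to 0.064 for Gad1, -0.066 to 0.21 for Lhx5 and -0.067 to 0.28 for Slc32a1.

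The median standard error over all genes was 0.54 for comparisons of single groups, against 0.16 to 0.23 for the members.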
